A study of Mus musculus with 17 samples.

Results

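The 10 genes described here encode enzymes that copy DNA in S phase and the ring and loader that hold them on the template. Pola1, Pola2 and Prim1 encode subunits of DNA polymerase alpha-primase, Pold1 the catalytic subunit of DNA polymerase delta, Pole and Pole2 subunits of DNA polymerase epsilon, Pcna the sliding clamp, Rfc3 and Rfc4 subunits of the clamp loader RFC, and Fen1 the nuclease that trims Okazaki fragments. The list was set by gene name and role, with earlier results of these data known, and no value served as a criterion for a gene. All 10 are among the 21887 protein-coding genes of the mouse gene table. An end of a gene was called occupied in a library when the summit of a peak lay within 500 bp of it. The fold of a peak is its fragment coverage over the local background, with the same constant added to both. It is thus smaller than the plain ratio of fragments to background, the more so at low counts. A peak at q 0.01 is one whose p, adjusted by the peak caller for multiple testing, was 0.01 or less.

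CUT&RUN, which cuts out and sequences the DNA next to an antibody-bound chromatin protein, was carried out on peeled mouse urothelium 1 week after TMX induction. The animals carried the genotype Stag2-KO (KO) or Stag2-WT (WT), and about 500000 urothelial cells were used per condition. The STAG2 antibody was used for 2 KO and 2 WT libraries, the LIN54 antibody for 2 KO and 3 WT, and the p130 antibody for 3 KO and 3 WT, each named as a biological replicate. Batch 1 held all STAG2 and LIN54 libraries, batch 2 held p130-WT replicate 1 alone, and batch 3 held the remaining 5 p130 libraries. The allele, the Cre driver, the age of the animals and any pooling of animals are not given in the sources used here.

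Replication begins when polymerase alpha-primase lays down a short primer, RFC then loads the PCNA ring at its end, and polymerases delta and epsilon extend it while held by the ring. Most of these genes are switched on at the G1/S transition by E2F and are silenced in resting cells. LIN54 and p130 (Rbl2) belong to DREAM, the complex that silences cell cycle genes in quiescence, and LIN54 binds the cell cycle genes homology region, or CHR. STAG2 belongs to cohesin, which pairs sister chromatids and shapes chromatin loops.

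The genes whose promoters are shown are the most often occupied at q 0.01 (Pcna and Pold1), the least often occupied (Prim1) and the member in which all 3 kinds of searched motif were found (Rfc3). The sequences are RefSeq promoter bases of build GRCm38.p6, read 5′ to 3′ toward the gene and ending at the base before its start. Capitals mark matches to the searched motifs. They lie at chr2:132253181-132253337 (minus strand) for Pcna, chr7:44548816-44549065 (minus) for Pold1, chr10:128014965-128015214 (plus) for Prim1 and chr5:151651209-151651458 (minus) for Rfc3. The Pcna run stops after 157 bases, where the neighbouring gene Cds2 begins, and the others have 250.
Pcna: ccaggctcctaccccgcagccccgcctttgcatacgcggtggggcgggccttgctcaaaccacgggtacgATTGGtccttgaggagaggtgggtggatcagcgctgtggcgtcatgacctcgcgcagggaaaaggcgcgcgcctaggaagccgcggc
Pold1: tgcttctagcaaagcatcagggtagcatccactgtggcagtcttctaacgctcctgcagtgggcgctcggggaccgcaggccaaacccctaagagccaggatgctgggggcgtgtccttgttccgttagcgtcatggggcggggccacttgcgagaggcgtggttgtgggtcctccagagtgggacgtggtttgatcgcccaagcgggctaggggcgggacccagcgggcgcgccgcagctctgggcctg
Prim1: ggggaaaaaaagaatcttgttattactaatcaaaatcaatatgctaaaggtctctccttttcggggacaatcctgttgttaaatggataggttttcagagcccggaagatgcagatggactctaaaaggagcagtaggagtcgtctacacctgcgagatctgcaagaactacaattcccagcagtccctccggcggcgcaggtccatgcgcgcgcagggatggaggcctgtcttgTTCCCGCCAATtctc
Rfc3: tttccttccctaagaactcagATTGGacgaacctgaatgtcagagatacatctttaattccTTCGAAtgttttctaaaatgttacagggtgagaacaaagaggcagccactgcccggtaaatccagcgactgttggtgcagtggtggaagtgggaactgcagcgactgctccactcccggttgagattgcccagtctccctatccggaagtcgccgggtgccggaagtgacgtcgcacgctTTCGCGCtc

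The search covered the 250 bases before the start on both strands, in the 9 members for which the table holds a promoter, and over 32851 promoters of the table for comparison. A CHR letter string (TTTGAA or TTCGAA) was found in Rfc3 and Fen1, and in 17.1% of all promoters. An E2F-like string (TTCCCGC or TTGGCGC or TTCGCGC or TTGCCGC) was found in Pola1, which held 3, in Prim1 and in Rfc3, and in 7.89% of all promoters. CCAAT was found in Pcna, Pola1, Prim1 and Rfc3, and in 33.8% of all promoters. The promoter start used for Pola1 lies 232 bp inside the gene end from which its summits are measured. By those coordinates the matches of Pola1 are inside the gene and not upstream of it. In Prim1 the CCAAT overlaps the E2F-like string. None of these strings occurs in the 250 bases of Pola2, Pold1, Pole2 or Rfc4. A match is a run of letters and not a binding site.

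The deposited lists held 286079 to 539191 peaks on chromosomes 1 to 19, X and Y, with p up to 0.05, so most peaks are weak. At q 0.01, 316 to 25859 peaks remained per list, and results are given at both levels. Genes with an occupied end at q 0.01 numbered 517 and 2174 in STAG2-KO, against 6411 and 3819 in STAG2-WT libraries. There were 4728 and 4378 in LIN54-KO, against 2285, 2875 and 1482 in LIN54-WT, and 464, 235 and 242 in p130-KO, against 263, 707 and 344 in p130-WT libraries. The log2 difference, KO minus WT, was -2.22 for STAG2 (two-sided exact permutation p = 0.333), 1.09 for LIN54 (exact permutation p = 0.1) and -0.43 for p130 (exact permutation p = 0.5). The smallest p these designs allow is 0.333 for STAG2 and 0.1 for the others, so none could reach 0.05. The STAG2 difference was -1.19 without KO replicate 1. The p130 difference was -0.75, -0.26 and -0.28 without KO replicates 1, 2 and 3, and -0.73 and -0.01 without WT replicates 1 and 2. Of 15 urothelial marker genes, 1 to 5 had a q 0.01 peak in STAG2-KO and 7 to 8 in STAG2-WT libraries, 3 to 4 in LIN54-KO and 0 to 2 in LIN54-WT libraries, and 0 in each p130 library. No library had a q 0.01 peak at any of the 5 immune or 4 endothelial marker genes. At q 0.01, up to 3 of 6 fibroblast genes were marked in LIN54-KO libraries and 1 in each STAG2-WT library, and of 5 smooth muscle genes Acta2 in a LIN54-KO library and Myh11 in a STAG2-WT library. In the deposited lists, 3 of the 5 immune genes had a peak in each LIN54-KO library, against 0 in each LIN54-WT library. Of all genes, 47.5% and 49.6% had one in these KO libraries and 47.2%, 49.4% and 45.3% in these WT libraries. Deposited peaks at fibroblast genes numbered 3 to 4 in LIN54-KO and 2 to 3 in LIN54-WT libraries. At endothelial genes they numbered 1 to 2 and 0 to 3, and at urothelial genes 9 to 10 and 9 to 13. Deposited peaks at smooth muscle genes numbered 2 to 3 in LIN54-KO and 2 to 3 in LIN54-WT libraries. The part of these markers in the LIN54 values below was not tested. The lists hold no RNA or protein level, so the loss of STAG2 in KO cells was not checked here. A peak at a gene end does not show expression, and fewer cells with an occupied end cannot be told apart from fewer fragments per cell.

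Among the 10 genes, Pcna was marked in the most libraries, Pold1 came next at q 0.01, and Prim1 was marked in the fewest. In the deposited lists Pcna had a peak in 15 of 15 libraries, where 1.92% of all genes did. Rfc3 had one in 14, Pold1, Pole2 and Fen1 in 13 each, Pola2 in 12, Pola1, Pole and Rfc4 in 11 each, and Prim1 in 5. Of all genes, 9.01% had a deposited peak in at least 13 of 15 libraries, and 26.5% in at least 10. At q 0.01 the order was Pcna with 13 libraries, Pold1 with 7, Pole2 and Fen1 with 3 each, and Pola1, Pola2 and Rfc3 with 2 each. Only 0.557% of all genes were marked at q 0.01 in at least 13 libraries. Pole, Prim1 and Rfc4 had no q 0.01 peak in any library, as was the case for 58.7% of all genes. With STAG2, 6 members had a q 0.01 peak in at least 1 library (35.3% of all genes), with LIN54 also 6 (27.6%) and with p130 2 (4.57%). Pcna and Pold1 had a q 0.01 peak with all 3 antibodies in at least 1 library of each, as did 3.87% of all genes.

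**Figure D1:**
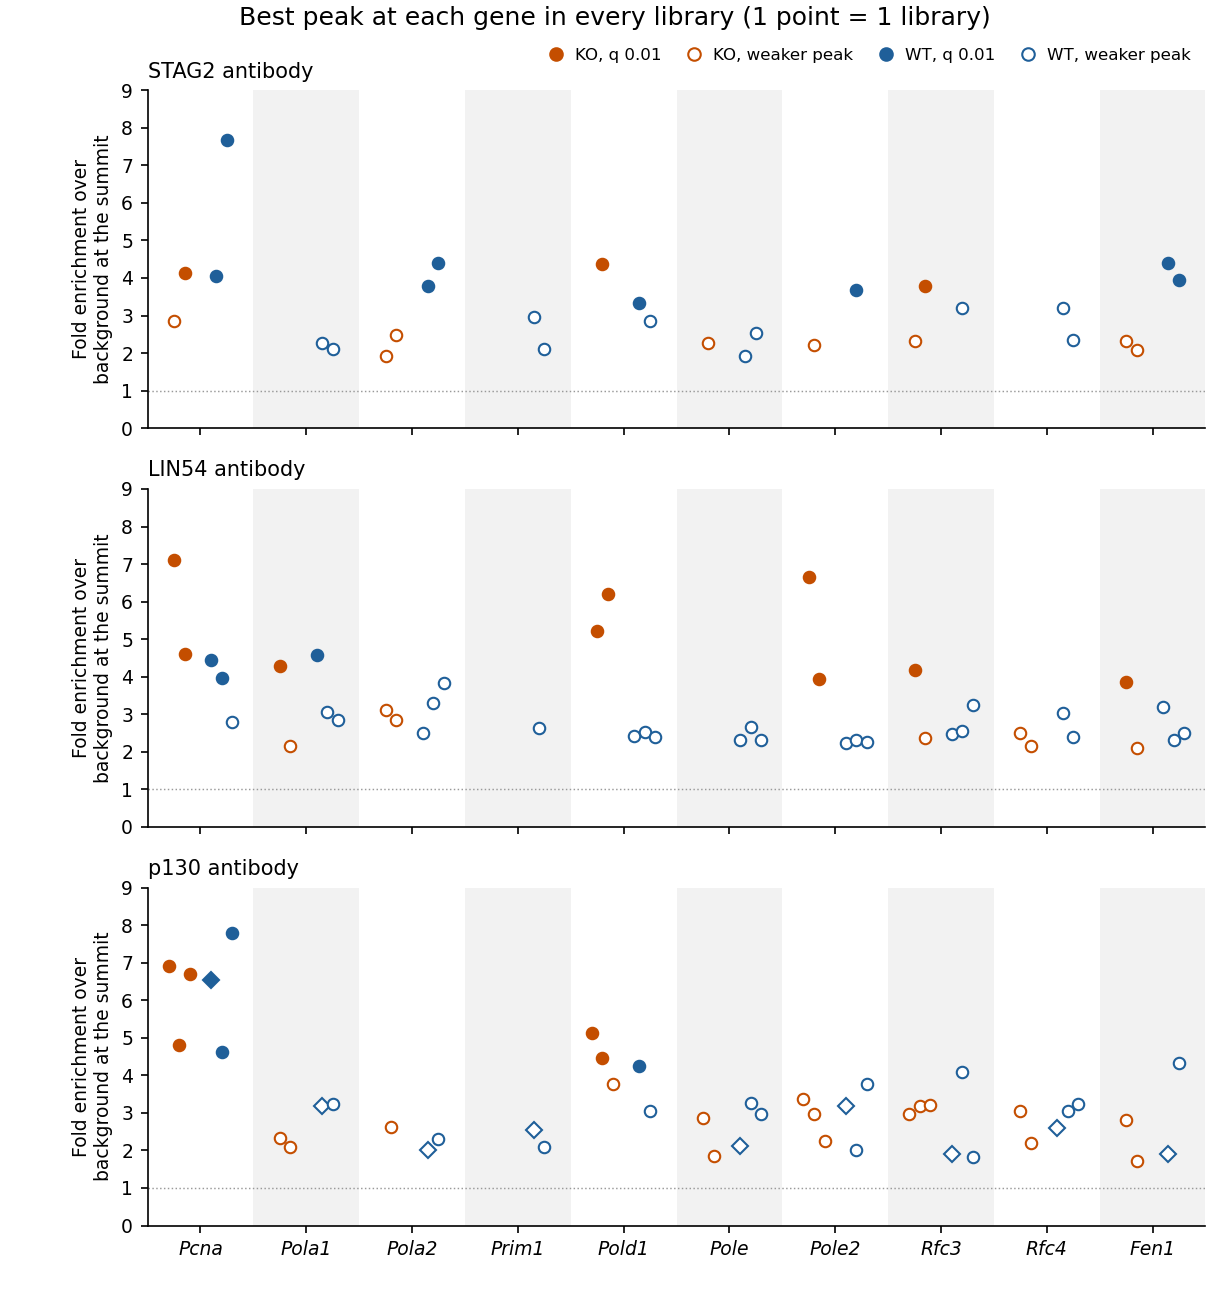
Fold enrichment over background (y axis, linear, dotted line at 1) at the best peak of each of the 10 genes (x axis), with a panel per antibody and 1 point per library, KO points left of WT points. Filled points reached q 0.01 and open points did not. A missing point means no summit within 500 bp of an end, and diamonds mark the p130-WT library of batch 2. Pcna is filled in all 6 p130 libraries, and Pold1 and Pole2 are filled in both LIN54-KO libraries and open in the LIN54-WT libraries.

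Numbers per library differed between antibodies and between libraries of a group, and are given with the share of all genes in the same libraries. With the STAG2 antibody, 4 and 7 of the 10 genes had a deposited peak in the KO libraries (38.7% and 46.2% of all genes), against 9 and 9 in the WT libraries (50.7% and 53.0%). At q 0.01 the numbers were 0 and 3 in KO (2.36% and 9.93%), against 5 and 3 in WT (29.3% and 17.4%). In every STAG2 library the deposited share of the 10 was above that of all genes, and at q 0.01 it was below in KO replicate 1.

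With LIN54, the deposited numbers were 8 and 8 in KO (47.5% and 49.6% of all genes), against 9, 10 and 8 in WT (47.2%, 49.4% and 45.3%). At q 0.01 they were 6 and 3 in KO (21.6% and 20%), against 2, 1 and 0 in WT (10.4%, 13.1% and 6.77%). For deposited LIN54 peaks the mean at the 10 genes was 8.0 in KO and 9.0 in WT, while the mean over all genes was 10624.5 in KO and 10350.7 in WT.

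With p130, 9, 7 and 5 genes had a deposited peak in KO libraries (34.4%, 35.7% and 33.4% of all genes), against 9, 8 and 8 in WT libraries (44.9%, 46.6% and 38.0%). At q 0.01 there were 2, 2 and 1 in KO (2.12%, 1.07% and 1.11%), against 1, 2 and 1 in WT (1.2%, 3.23% and 1.57%). For STAG2 and LIN54 the genotype with the higher mean at q 0.01 was the same for the 10 genes and for all genes. For p130 it was not, with means of 1.67 in KO and 1.33 in WT for the 10 genes, and of 313.7 in KO and 438.0 in WT for all genes. Pcna counted in every p130 library, so the means of the 10 differed only through Pold1, marked in 2 KO libraries and 1 WT library. With batch 3 alone the means of the 10 were 1.67 and 1.5. They were 0.667 in KO and 0.667 in WT with a window of 250 bp, and also at −log10 q of at least 5.

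**Figure D2:**
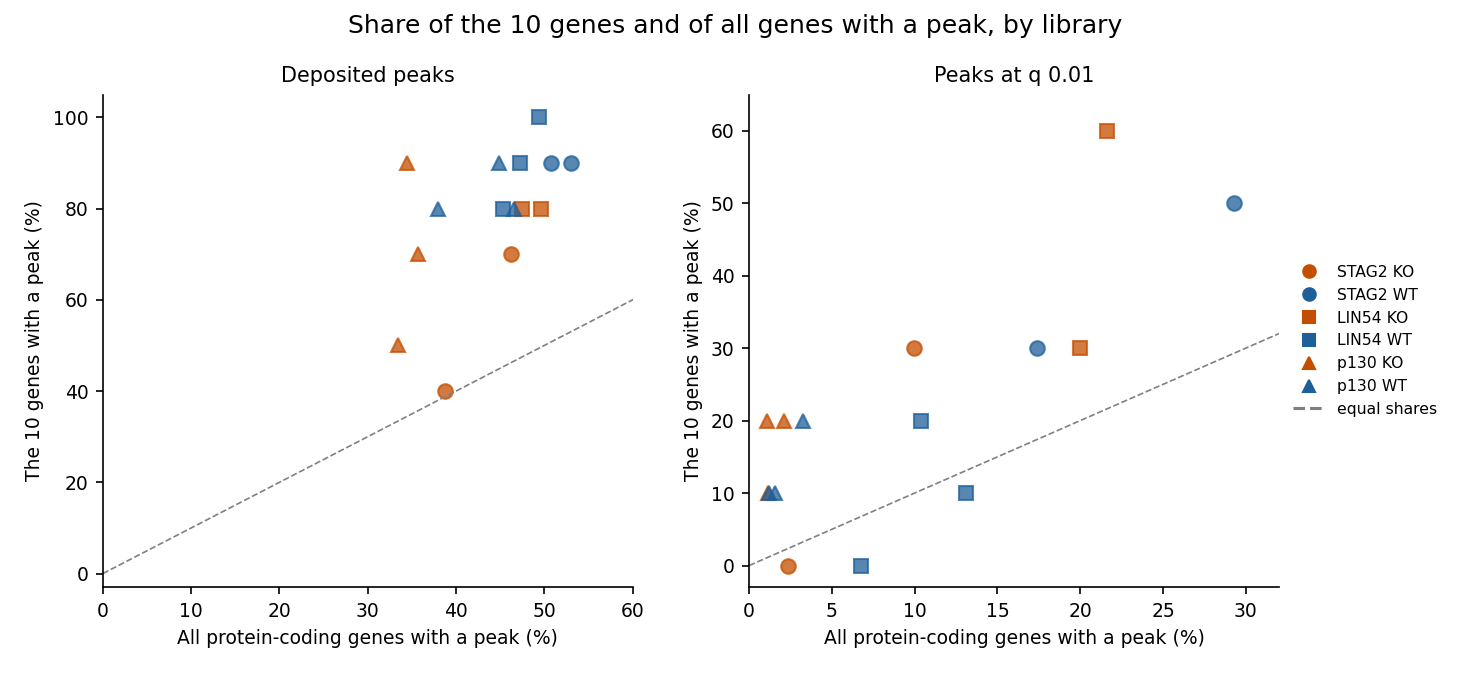
Percent of the 10 genes with a peak (y axis) against the percent of all protein-coding genes with a peak (x axis), 1 point per library, with the deposited peaks on the left and the peaks at q 0.01 on the right. The dashed line marks equal shares, and in the left panel the points lie above it in every library, by the least in STAG2-KO replicate 1 with 4 of 10 genes against 38.7% of all genes. In the right panel STAG2-KO replicate 1 and LIN54-WT replicates 2 and 3 lie below it, with 0, 1 and 0 of 10 genes against 2.36%, 13.1% and 6.77% of all genes.

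A peak in every library of a group was set against the share of all genes with the same property. In the deposited lists it was found at 4 of 10 genes for STAG2-KO (25.5% of all genes) and at 8 for STAG2-WT (35.0%), at 8 for LIN54-KO (35.5%) and at 8 for LIN54-WT (23.8%), and at 4 for p130-KO (8.88%) and at 5 for p130-WT (14.3%). At q 0.01 it was found at 0 of 10 for STAG2-KO (1.90% of all genes) and at Fen1, Pcna and Pola2 for STAG2-WT (12.6%). For LIN54-KO it was found at Pcna, Pold1 and Pole2 (15.8%), and for LIN54-WT at 0 of 10 (4.71%). For p130-KO (0.681%) and p130-WT (0.758%) it was Pcna alone. These are counts of genes chosen by name, with no test of the group as a whole.

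Pcna, the sliding clamp gene on chromosome 2 (132249286 to 132253180, mm10), had the highest p130 fold of the 10 genes in each of the 6 p130 libraries. Its p130 folds were 6.90, 4.82 and 6.71 in the KO libraries, against 6.55, 4.61 and 7.79 in the WT libraries. All 6 peaks reached q 0.01, with q between 1.47e-10 and 4.66e-04, and the folds of the genotypes overlapped. A q 0.01 peak in all 6 p130 libraries was found at 112 genes, or 0.512% of all genes. The summits were covered by 20, 16 and 20 fragments in KO and by 17, 15 and 19 in WT libraries, over a local background of 1.57 to 2.53 fragments. The counting error of such numbers is wide, with an exact Poisson 95% interval of 12.2 to 30.9 for 20 fragments and 8.40 to 24.7 for 15. Among all occupied gene ends of its library, ordered by p, Pcna ranked 170, 164 and 79 in KO and 103, 403 and 104 in WT. Without the WT library of batch 2, the 5 libraries of batch 3 each held the peak at q 0.01.

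The best p130 summits at Pcna lay inside the gene, 468, 488 and 392 bp from its 5′ end in KO libraries and 481, 388 and 450 bp in WT libraries. They were 546 to 646 bp from the 5′ end of Cds2, the divergent neighbour that begins 158 bp from Pcna, and thus outside its window. A second p130 summit of WT replicate 2 passed q 0.01 as well (fold 4.25, q = 0.00887). It lay 147 bp upstream of Pcna and 11 bp from the 5′ end of Cds2, so that signal is shared by both genes. With a window of 250 bp, p130 peaks at q 0.01 remained at Pcna in 0 of 3 KO and 1 of 3 WT libraries, and 6 of 15 libraries of all antibodies kept one, against 13 with 500 bp. The best LIN54 summits fell on both sides of the start. Those of LIN54-KO replicate 1 and LIN54-WT replicate 2 lay 379 and 388 bp into the gene, where the p130 summits were, and the other 3 lay 195 to 348 bp upstream, 37 to 190 bp from the 5′ end of Cds2. STAG2 summits lay 239 and 14 bp upstream in KO, and 32 bp upstream and 196 bp into the gene in WT. All 4 were also within 500 bp of the 5′ end of Cds2, so the genes share this signal.

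Pcna folds for LIN54 were 7.11 and 4.61 in KO libraries, against 4.45, 3.97 and 2.79 in WT libraries, so every KO value was above every WT value. The peak of LIN54-WT replicate 3 had 6 fragments and q = 0.624, and it was 1 of the 2 best Pcna peaks of the series above q 0.01. The other was that of STAG2-KO replicate 1 (q = 0.379). STAG2 folds were 2.86 and 4.13 in KO, against 4.04 and 7.68 in WT, and the genotypes overlapped.

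**Figure D3:**
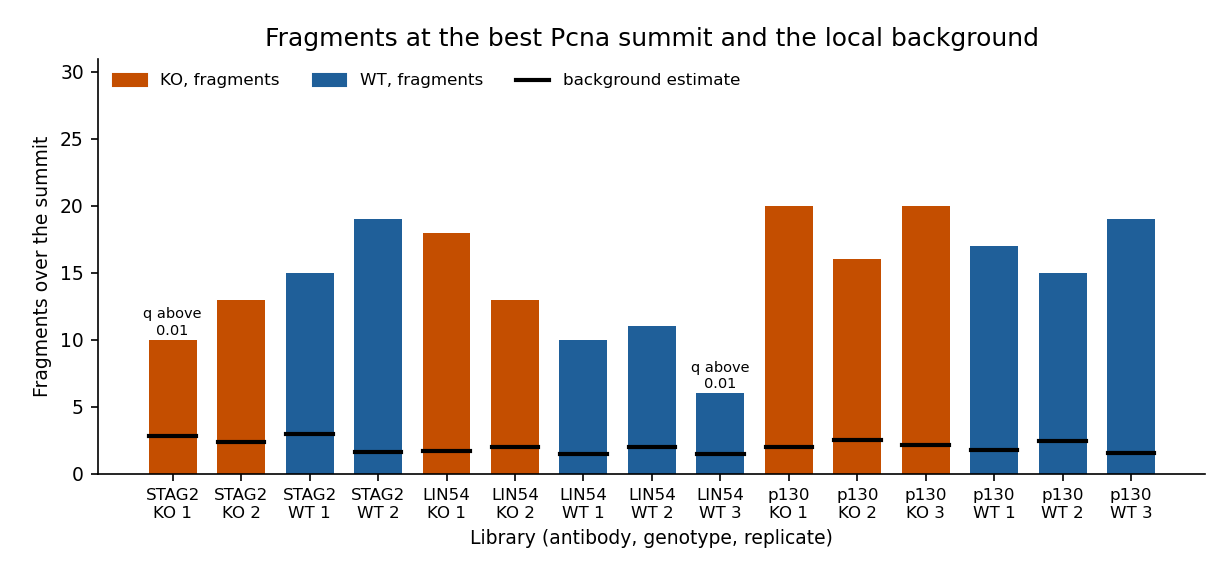
Fragments covering the best Pcna summit (bars, y axis from 0) in each of the 15 libraries (x axis), recovered from the authors' fold and p, with the background estimated at the same place (black lines), KO bars left of WT bars within an antibody. The 6 p130 bars stand between 15 and 20 fragments, and the LIN54-WT bars at 10, 11 and 6 are below the LIN54-KO bars at 18 and 13.

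Pold1 (chromosome 7, 44532744 to 44548815) encodes the catalytic and proofreading subunit of polymerase delta, which extends the lagging strand. It was the only other member with a p130 peak at q 0.01, in 3 of 6 libraries. Its p130 folds were 5.14, 4.47 and 3.78 in KO, against 4.25 and 3.06 in WT replicates 2 and 3, with no peak in WT replicate 1, the library of batch 2. In LIN54 libraries the folds were 5.22 and 6.19 in KO, with q = 7.44e-06 and 6.56e-08, against 2.43, 2.52 and 2.38 in WT, with q between 0.317 and 0.593. Each KO fold was more than each WT fold. The fragment counts were close, 13 and 15 in KO and 11, 10 and 12 in WT, while the local background was 1.68 and 1.59 in KO and 3.93, 3.37 and 4.46 in WT. The part of the background in the fold difference was not tested. STAG2 folds were 4.38 in KO replicate 2, with no peak in KO replicate 1, and 3.33 and 2.86 in WT.

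The 5 best LIN54 summits at Pold1 lay within a short stretch, 61 and 78 bp upstream of the 5′ end in KO and 70, 95 and 98 bp upstream in WT. The p130 summits lay 16 bp upstream, 173 bp and 31 bp into the gene in KO, and 8 bp upstream and 25 bp into the gene in WT. The STAG2 summits lay 56 bp upstream in KO replicate 2, and 319 bp into the gene and 82 bp upstream in WT. The nearest other gene end is the 3′ end of Nr1h2, 801 bp away, and no best Pold1 summit fell within 500 bp of it. The LIN54 summits are within the Pold1 sequence printed above, in which none of the searched strings occurs.

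**Figure D4:**
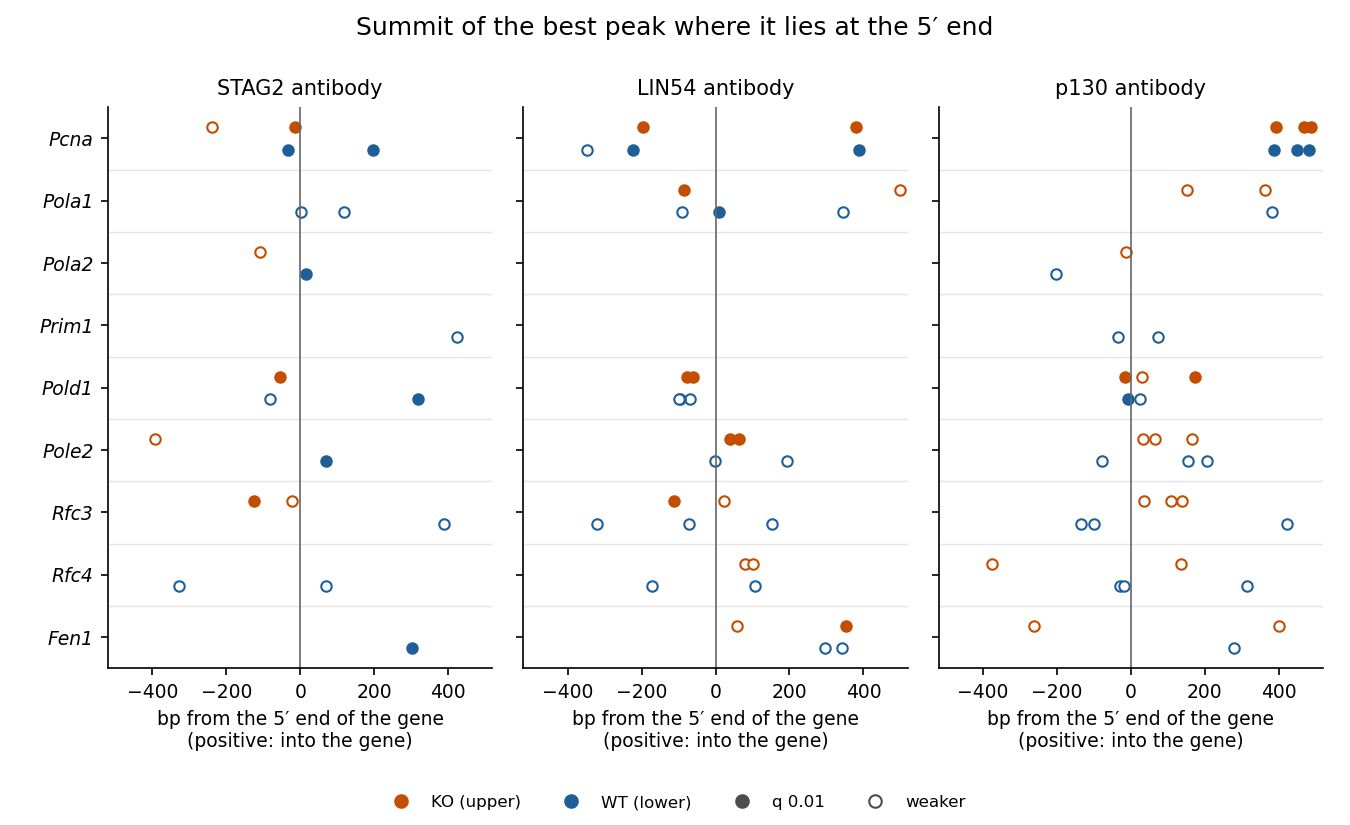
Position of the best summit relative to the 5′ end of each gene (x axis in bp, positive into the gene) where it lay at that end, with a panel per antibody, KO points above WT points in each row, filled at q 0.01 and open where weaker. The p130 summits of Pcna gather between 388 and 488 bp into the gene, whereas the LIN54 summits of Pold1 gather between 61 and 98 bp upstream.

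Pole2 (chromosome 12, 69201773 to 69228205), the non-catalytic partner of Pole in polymerase epsilon, had a pattern like that of Pold1 with LIN54. The folds were 6.65 and 3.95 in KO libraries, with 19 and 11 fragments and q = 3.11e-10 and 0.00218. In WT libraries they were 2.24, 2.32 and 2.27, with 5, 6 and 5 fragments and q between 0.582 and 0.857. The 2.24 of WT replicate 1 was a summit at the 3′ end, and the 5′ summit of that library had a fold of 1.68. The groups did not overlap, and here the fragment counts differed as well as the folds. The KO summits lay 40 and 64 bp into the gene. They were 436 and 412 bp from the 5′ end of Klhdc1, a gene on the other strand whose start lies inside Pole2, so the signal is shared with it. No p130 peak at Pole2 reached q 0.01, with folds of 3.37, 2.97 and 2.25 in KO and 3.19, 2.02 and 3.78 in WT. The only STAG2 peak at q 0.01 was in WT replicate 1, with a fold of 3.68.

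Set against the series, a LIN54 fold order with KO above WT, as at these genes, was common. Deposited LIN54 peaks in all 5 libraries were found at 7 members and at 19.7% of all genes. Of these 7, Pcna, Pold1 and Pole2 had every KO fold above every WT fold. The same held for 1990 of 4319 genes, or 46.1%. The opposite order was found at 0 of 7 members and at 2.64% of those genes. A q 0.01 peak in both LIN54-KO libraries and no LIN54-WT library was found at Pold1 and Pole2, and at 3.99% of all genes.

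Polymerase epsilon's catalytic subunit gene Pole (chromosome 5, 110286319 to 110337468) did not share the pattern of Pole2. It had no LIN54 peak in KO, and in WT it had weak ones with folds of 2.30, 2.65 and 2.30. A LIN54 peak in every WT and no KO library was found at 1.38% of all genes. Its p130 folds were 2.86 and 1.84 in 2 of 3 KO libraries and 2.13, 3.27 and 2.97 in WT. No Pole peak within the window reached q 0.01. Just outside it, 534 bp from the lower-coordinate end, STAG2-WT replicate 1 had a summit with a fold of 4.77 and q = 3.86e-05. That end lies 97 bp from an end of Pxmp2.

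Polymerase alpha-primase genes were weakly marked. Pola1 (chromosome X, 93304766 to 93632387), the catalytic subunit, had LIN54 folds of 4.29 and 2.15 in KO, against 4.57, 3.07 and 2.85 in WT, and the genotypes overlapped. KO replicate 1 (q = 5.86e-04) and WT replicate 1 (q = 0.00147) were its only q 0.01 peaks within the window. With STAG2 it had no peak in KO and weak ones in WT, with folds of 2.26 and 2.12. Beyond the window, 922 bp from an end, STAG2-WT replicate 1 had a summit with a fold of 4.01 and q = 0.00176. The p130 folds were 2.33 and 2.09 in KO replicates 1 and 2, against 3.18 and 3.23 in WT replicates 1 and 3. The best summit of p130-WT replicate 1 lay 454 bp from the 3′ end. The X chromosome held 0.436% and 0.259% of all peaks in STAG2-KO libraries, against 1.00% and 2.42% in STAG2-WT, and 0.486% and 0.744% in LIN54-KO, against 5.09%, 4.17% and 3.16% in LIN54-WT. In p130 libraries it held 0.31%, 0.312% and 0.33% in KO, against 5.98%, 0.44% and 0.465% in WT, where the 5.98% was that of replicate 1, the library of batch 2. The part of these X chromosome shares in the Pola1 values was not tested.

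Pola2 (chromosome 19, 5940543 to 5964238), the regulatory subunit, was the member with its best summit mostly at the 3′ end, in 8 of its 12 libraries. The best LIN54 summits of all 5 libraries lay 84 to 189 bp from the 3′ end, with folds of 3.12 and 2.84 in KO, against 2.50, 3.31 and 3.84 in WT. None of them reached q 0.01. STAG2 folds were 1.93 and 2.47 in KO, against 3.79 and 4.39 in WT, where both reached q 0.01. The best WT summits lay at opposite ends of the gene, 16 bp from the 5′ end in replicate 1 and 137 bp from the 3′ end in replicate 2. WT replicate 1 also had a 3′ summit (fold 3.54, q = 0.00194), 9 bp from that end, so the 3′ end was marked at q 0.01 in both WT libraries. Prim1 (chromosome 10, 128015215 to 128030030), the primase subunit that makes the RNA primer, was marked in 5 libraries, all of them WT. Its folds were 2.97 and 2.12 with STAG2, 2.63 in LIN54-WT replicate 2, and 2.54 and 2.09 in p130-WT replicates 1 and 3. The lowest q of these was 0.0191. The peaks of STAG2-WT replicate 2 and LIN54-WT replicate 2 lay at the 3′ end, with 4 and 5 fragments, so the 5′ end was marked in 3 libraries. The share of all genes with peaks in WT libraries alone is not given here.

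Fen1 (chromosome 19, 10199132 to 10204393), the flap nuclease gene, had STAG2 folds of 2.32 and 2.08 in KO, against 4.40 and 3.95 in WT, with q = 1.24e-04 and 0.00407 in WT. The values did not overlap, but the best WT summits again lay at opposite ends, 301 bp into the gene from the 5′ end in replicate 1 and 199 bp from the 3′ end in replicate 2. WT replicate 1 had a further summit 376 bp from the 3′ end (fold 4.17, q = 2.58e-04), and both KO libraries had their best summit at that end. Both Fen1 and Pola2 thus had a q 0.01 STAG2 peak at the 3′ end in both WT libraries and at the 5′ end in replicate 1 alone. At its 5′ end Fen1 overlaps Tmem258, which begins 191 bp away on the other strand, and every best summit at that end was within 452 bp of the start of Tmem258. LIN54 folds were 3.85 and 2.11 in KO, against 3.19, 2.32 and 2.49 in WT. The p130 folds were 2.82 and 1.73 in KO replicates 1 and 2, against 1.91 and 4.32 in WT replicates 1 and 2 (q = 0.0110 for the last), with no peak in replicate 3 of either genotype.

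For STAG2 as well, a fold order with KO below WT was common in the series. Fen1, Pcna and Pola2 had a deposited STAG2 peak in all 4 libraries, as did 16.2% of all genes. Of these 3, Fen1 and Pola2 had every KO fold below every WT fold, as did 54.4% of the 3555 such genes. Fen1 and Pola2 were also the members with a q 0.01 peak in both WT and neither KO library, as were 6.19% of all genes. In the deposited lists, Pola1, Prim1 and Rfc4 had a STAG2 peak in both WT and neither KO library, as did 6.44% of all genes. For p130, neither order was found among Pcna, Pole2 and Rfc3, which had a peak in all 6 libraries as did 3.83% of all genes, where 6.44% of 838 genes had every KO fold above and 8.95% every KO fold below the WT folds.

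The clamp loader genes had frequent but weak peaks. Rfc3 (chromosome 5, 151642817 to 151651208) was marked at the 5′ end in 14 libraries. Its p130 folds were 2.96, 3.19 and 3.21 in KO, against 1.90, 4.10 and 1.82 in WT, with summits 36 to 139 bp into the gene in KO. Its q 0.01 peaks were those of STAG2-KO replicate 2 (fold 3.79) and LIN54-KO replicate 1 (fold 4.19). The library without a Rfc3 peak, STAG2-WT replicate 1, had a summit 859 bp from an end with a fold of 4.55 and q = 8.32e-06, beyond the window. Rfc4 (chromosome 16, 23113948 to 23127730) was marked at the 5′ end in 11 libraries, with folds between 2.15 and 3.24. Neither STAG2-KO library had a Rfc4 peak, and the WT folds were 3.19 and 2.35.

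Over the 9 members with a known strand, 99 of 107 gene and library pairs with a deposited peak had it at the 5′ end, or 92.5%, against 79.6% over all 17492 genes with a strand. At q 0.01 the numbers were 30 of 32 pairs, or 93.8%, against 96.5%. The summits nearest to the limit of the window on the inside were those of Pola1 in LIN54-KO replicate 2 (499 bp), with a fold of 2.15, and Rfc3 in LIN54-KO replicate 1 (497 bp from the 3′ end), with a fold of 2.47. The nearest outside was Pola1 in p130-WT replicate 1 at 502 bp with a fold of 2.91.

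Other genes of DNA synthesis were described by the same rule. Genes with a q 0.01 peak in every library were counted among 17 further genes of the replicative polymerases, loaders and Okazaki fragment joining. They numbered 0 for STAG2-KO (1.90% of all genes) and 6 for STAG2-WT (12.6%). For LIN54 there were 5 in KO (15.8%) and 2 in WT (4.71%), and for p130 3 in KO (0.681%) and 2 in WT (0.758%). Chtf18, a subunit of an alternative clamp loader, reached q 0.01 in 13 of 15 libraries and in all 6 p130 libraries, as Pcna did. Pclaf, the PCNA-associated factor, also did so in all 6 p130 libraries, with a highest fold of 11.0 over all libraries. Pole4, an accessory subunit of polymerase epsilon, did so in 3 of 3 KO and 1 of 3 WT p130 libraries. In both STAG2-WT libraries Chtf18, Pold3 and Pold4 were among the 6, and the last 2 are accessory subunits of polymerase delta.

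Of 13 repair, translesion and mitochondrial polymerase genes, none had a q 0.01 p130 peak in any library, where 4.57% of all genes and 2 of the 10 members, Pcna and Pold1, had one. With STAG2-WT, 3 of the 13 were marked at q 0.01 in both libraries, namely Polg2, Poln and Rev3l, as were 12.6% of all genes. Of the 6 MCM helicase genes, Mcm3, Mcm4, Mcm5 and Mcm7 had a q 0.01 p130 peak in all 3 KO and all 3 WT libraries. The same held for Gins1 and Gins2 of 13 licensing and GINS genes, and for 0.512% of all genes. Cdc6 had a q 0.01 p130 peak in all WT libraries, as did 0.758% of all genes. Of 8 nucleotide supply genes, 0 had one in every p130 library of either genotype (0.681% of all genes in KO and 0.758% in WT). Over the 6 p130 libraries the single-library numbers at q 0.01 were 1 to 2 of the 10 members and 4 to 6 of the 6 MCM genes. The share of all genes was 1.07% to 2.12% in KO and 1.2% to 3.23% in WT libraries.

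The genes whose log2 fold profile over the 15 libraries was most like the mean profile of the 10 were Dgcr8 (r = 0.89), Prelid3b (0.88), Hspbp1 (0.86), Iws1 (0.85) and Nutf2 (0.85), out of 5788 genes with a peak in at least 10 libraries. The values are Pearson correlations over 15 libraries with a log2 fold of 0 where there was no peak. All genes of a library share its depth and its number of peaks, so this is a description only.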

How the data were processed

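Peak lists of 15 of the 17 CUT&RUN samples were analysed, leaving out 2 pMNase controls. The tools were MACS2, Bowtie2 and bcl2fastq and the build mm10, per the submitters' processing notes. Versions, settings and any control library are not given in the sources used here. The authors' deposited lists, called per library, give for each peak a fold enrichment, a −log10 p and a −log10 q. The fold is a ratio of pileup to local background with the same constant added to both. The deposited score was not used, and the summit offset gave the summit position. Folds and q are the authors' values within a library and were described, not tested between genotypes.

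The fold and p of a summit together give the whole number of fragments over it and the background there, and in every library at least 99.97% of a 1-in-50 sample of peaks came out whole within 0.0002. Fragment counts carry counting error only, as PCR copies are not told apart. For each gene and library the best summit (highest −log10 p) within 500 bp of either end was used. Gene coordinates came from the RefSeq table of GRCm38.p6, the assembly behind mm10, and strand came from the RefSeq promoter table. A missing peak means that no summit was called within 500 bp of an end at that depth. In some libraries a summit lay just beyond the window, as at Rfc3 in STAG2-WT replicate 1. Counts of genes with an occupied end were compared on the log2 scale between genotypes by two-sided exact permutation tests over libraries, each antibody on its own. Labels name the libraries as biological replicates, with no animals listed, so p-values measure the spread between these libraries. Alternatives were windows of 250 and 1000 bp, any base of a peak, the 5′ end alone, −log10 q of at least 5, all libraries of a group but 1, batch 3 alone, each library left out, and replicate numbers as a block. All 10 members and, of the other lists, up to 3 genes per list with a q 0.01 peak in every library of a group were named, by alphabet. Mcm7 was named after its values were seen. The members and lists were chosen with earlier results of these data known. The code was tested on simulated data. Software was SciPy 1.17.1, pandas 2.3.3 and NumPy 2.4.6 under Python 3.11.15, with Matplotlib 3.10.9 for figures.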

Additional observations from a re-analysis of the deposited data

How the results depend on the processing

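Directions and counts below are for the mean number of the 10 genes with a peak per library unless said otherwise, deposited peaks first. With a window of 250 bp the deposited means were 6.5 in STAG2-WT, 6.5 in LIN54-KO, 6.67 in LIN54-WT, 5.0 in p130-KO and 6.33 in p130-WT, and with 1000 bp they were 10.0 in STAG2-WT, 8.5 in LIN54-KO and 9.0 in p130-WT. Counting any base of a peak gave 9.5 in STAG2-WT and 9.0 in p130-WT, and the 5′ end alone gave 7.5 in STAG2-WT, 7.5 in LIN54-KO, 7.33 in LIN54-WT and 6.67 in p130-WT. The values with 500 bp, summits and either end were 9.0 in STAG2-WT, 8.0 in LIN54-KO, 9.0 in LIN54-WT, 7.0 in p130-KO and 8.33 in p130-WT. In STAG2-KO the deposited mean was 5.5 with 500 bp, 3.5 with 250 bp and 6.5 with 1000 bp. It was 6.0 with any base of a peak and 4.0 with the 5′ end alone. At q 0.01 a window of 1000 bp gave 5.5 in STAG2-WT, against 4.0 with 500 bp, and 250 bp gave 0.667 in p130-KO and 0.667 in p130-WT, against 1.67 and 1.33. At −log10 q of at least 5 the means were 0.5 in STAG2-WT, 2.0 in LIN54-KO, 0 in LIN54-WT, 0.667 in p130-KO and 0.667 in p130-WT. Asking for a peak in all libraries of a group but 1, the numbers of the 10 genes were 7, 8 and 10 in STAG2-KO, p130-KO and p130-WT for deposited peaks, and at q 0.01 they were 3 in STAG2-KO, 5 in STAG2-WT, 6 in LIN54-KO, 1 in LIN54-WT and 2 in p130-KO. In STAG2-KO, STAG2-WT and LIN54-KO, with 2 libraries each, this asks for a peak in any 1 library. The share of all genes under these alternatives is not given here. The numbers of the 10 genes thus show how the counts move, and not how unusual they are. Over all gene ends, the log2 difference of deposited LIN54 peaks, KO minus WT, was 0.04 (exact permutation p = 0.4) and turned to -0.02 (exact p = 0.7) with 1000 bp, and the cause was not tested. With 1 library left out, the log2 difference of all gene ends at q 0.01 lay between -3.26 and -1.19 for STAG2, 0.83 and 1.31 for LIN54, and -0.75 and -0.01 for p130, and for deposited peaks between -0.42 and -0.17, 0.01 and 0.07, and -0.41 and -0.26. The mean number of the 10 genes at q 0.01 then lay between 0 and 3.0 in STAG2-KO and 0.5 and 1.5 in LIN54-WT.

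Deviations of same-numbered libraries from their group means correlated between -0.02 and 0.05 over 14361 genes. These values cannot decide whether the replicate numbers pair the libraries, since peaks rest on few fragments and in groups of 2 libraries the deviations are mirror images. With the replicate number as a block, the log2 difference of all gene ends at q 0.01 was -2.22 for STAG2, 0.83 for LIN54 and -0.43 for p130. For deposited peaks it was -0.29, 0.01 and -0.32. The LIN54 block holds 2 pairs and leaves out WT replicate 3, and without that library the unblocked values were also 0.83 and 0.01. Since none of these designs can reach 0.05, the block says nothing about stability.

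Depth limits the low end, as a deposited peak at these genes rests on 4 to 20 fragments.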
